A study of Mus musculus with 2 samples.

Results

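The 9 genes described here encode components and receptors of the complement system, and all 9 were found by their symbols among the 32287 genes of the deposited count matrices. C1qa, C1qb and C1qc encode the 3 chains of C1q, C4b and C2 the fourth and second components, C3 the third component, Cfb factor B, and C3ar1 and C5ar1 the receptors for the small fragments of C3 and C5. In muscle 7 days after peroneal nerve injury, the UMIs of these genes fell into 3 patterns. C1q and both receptors were held by mononuclear phagocytes, C3 and C2 mainly by mesenchymal-like cells, and C4b and Cfb by both. Per UMI of the class, C4b and Cfb stood higher in mesenchymal-like cells, of which fewer were captured. Schwann-like cells carried few UMIs of any of the 9 genes.

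Complement is a set of plasma and tissue proteins that cleave one another in sequence. The classical route begins when C1q binds antibody or an altered surface and its attached proteases cut C4 and C2, while the alternative route uses C3 and factor B to amplify its own product, and both meet at the cleavage of C3. The liver makes most plasma complement, whereas C1q is known as a product of macrophages and dendritic cells, and fragments of C3 and C5 draw in and activate myeloid cells that carry the matching receptors. In nerve and muscle injury, complement is known for tagging debris, such as degenerating myelin, for uptake by phagocytes. The deposited matrices name the genes ENSMUSG00000036887 (C1qa), ENSMUSG00000036905 (C1qb), ENSMUSG00000036896 (C1qc), ENSMUSG00000024371 (C2), ENSMUSG00000024164 (C3), ENSMUSG00000073418 (C4b), ENSMUSG00000090231 (Cfb), ENSMUSG00000040552 (C3ar1) and ENSMUSG00000049130 (C5ar1).

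The data were 2 single-cell libraries from hind limb muscle of male mice aged 10 to 16 weeks with bilateral peroneal nerve injury. Mice of 1 group received 2 μg of an SPP1 neutralizing antibody (SPP1-nAb, AF808) in 10 μL into the tibialis anterior, and mice of the other group received goat anti-mouse IgG, at the injury and every 2 days until harvest at day 7. SPP1, or osteopontin, is a secreted protein that injured-muscle macrophages are known to produce. The sources differ on which mice and muscles were used: the labels give C57BL/6J and the tibialis anterior with the gastrocnemius, the study's methods an S100GFP transgenic strain and the tibialis anterior, and the titles speak of S100GFP-positive cells although live GFP+ and GFP- cells were sorted. Muscles were pooled over a number of mice that is not given, so each group was 1 library, no test between groups was possible, and the intervals given here are 95% intervals that cover counting error only.

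The IgG library held 23779 barcodes with a median of 3783 UMIs (unique molecular identifiers, 1 per captured transcript) and the SPP1-nAb library 25069 with a median of 4722. After filters on genes, mitochondrial UMIs and doublets, 21047 and 22282 cells remained, and 125 kept barcodes were present in both libraries. They formed 31 clusters, which were made without the complement genes, and clusters were grouped into classes by marker genes. Mononuclear phagocytes made up 58.5% of cells in the IgG library and 69.9% in the SPP1-nAb library, mesenchymal-like cells 11.9% and 4.71%, and Schwann-like cells 523 and 548 cells. The same markers named the classes, so their levels are a description and not a separate check. Summed phagocyte markers lay at 4889.6 and 4580.4 CPM (UMIs per 1000000 UMIs of the class) in phagocytes against 232 and 262 in mesenchymal-like cells. Summed mesenchymal markers lay at 32707 and 29358 CPM in mesenchymal-like cells against 68.1 and 50.5 in phagocytes. Levels below are CPM, given for IgG first and SPP1-nAb second.

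C1q is a bundle of triplets, each built of 1 A, 1 B and 1 C chain, so its 3 genes are needed together. In GRCm39 they lie side by side on the minus strand of chromosome 4, C1qb at chr4:136606009-136613511, C1qc at chr4:136616466-136620376 and C1qa at chr4:136623223-136626161, each with 3 exons and with gaps of 2954 and 2846 bases between them. The 250 bases before each annotated start are printed below 5′ to 3′ on the gene's strand because the 3 genes moved together over the clusters. Capitals mark the core of ETS factor sites (GGAAGT, on either strand), the family that includes the myeloid factor PU.1, and in C1qc the longer PU.1 motif GAGGAAGT that contains that core.
C1qa, chr4:136626162-136626411: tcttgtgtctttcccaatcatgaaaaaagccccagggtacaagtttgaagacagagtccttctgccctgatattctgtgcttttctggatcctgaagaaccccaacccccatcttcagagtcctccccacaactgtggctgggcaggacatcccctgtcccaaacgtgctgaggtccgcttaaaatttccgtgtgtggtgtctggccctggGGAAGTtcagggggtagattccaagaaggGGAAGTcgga
C1qb, chr4:136613512-136613761: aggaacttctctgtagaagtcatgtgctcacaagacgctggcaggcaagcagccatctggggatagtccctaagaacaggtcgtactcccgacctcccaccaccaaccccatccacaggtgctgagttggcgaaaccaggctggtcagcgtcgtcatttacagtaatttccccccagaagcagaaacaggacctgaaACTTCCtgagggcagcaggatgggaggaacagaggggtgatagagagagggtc
C1qc, chr4:136620377-136620626: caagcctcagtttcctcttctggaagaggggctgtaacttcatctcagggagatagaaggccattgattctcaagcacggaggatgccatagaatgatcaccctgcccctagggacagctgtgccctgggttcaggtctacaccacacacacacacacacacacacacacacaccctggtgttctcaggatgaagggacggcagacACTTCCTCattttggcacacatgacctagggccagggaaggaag
The core began 39 and 10 bases before the C1qa start, 53 bases before the C1qb start and 44 bases before the C1qc start. It was not particular to C1q: the core also lay 147 bases before the C4b start, 245 before Cfb, and 190 and 72 before C5ar1. The window of C3ar1 had no such core. The core was present in 19.0% of 21757 promoters of the same length and the PU.1 motif in 2.08%, and the shorter core was added after these sequences had been seen. A match of letters is a description of the sequence and not a bound site.

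C1q UMIs were almost wholly phagocyte UMIs. Phagocytes held 98.2% (98.13 to 98.23) of the C1q UMIs of the IgG library and 98.9% (98.90 to 98.96) of those of the SPP1-nAb library. Summed over the 3 chains, phagocytes of the IgG library carried 5082 CPM (5063 to 5102). Those of the SPP1-nAb library carried 4619.7 CPM (4605 to 4635). By chain, C1qa stood at 1689 and 1478 CPM, C1qb at 2070 and 1975, and C1qc at 1324 and 1166.5. The log2 ratios of SPP1-nAb over IgG were -0.19, -0.07 and -0.18, all under the 1.5-fold used to count a gene as different. With both libraries given the same mix of phagocyte clusters they turned to 0.03, 0.09 and 0.04, and the interval of summed C1q lay above 0 in 6 of 9 clusters and below in 2.

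**Figure D1:**
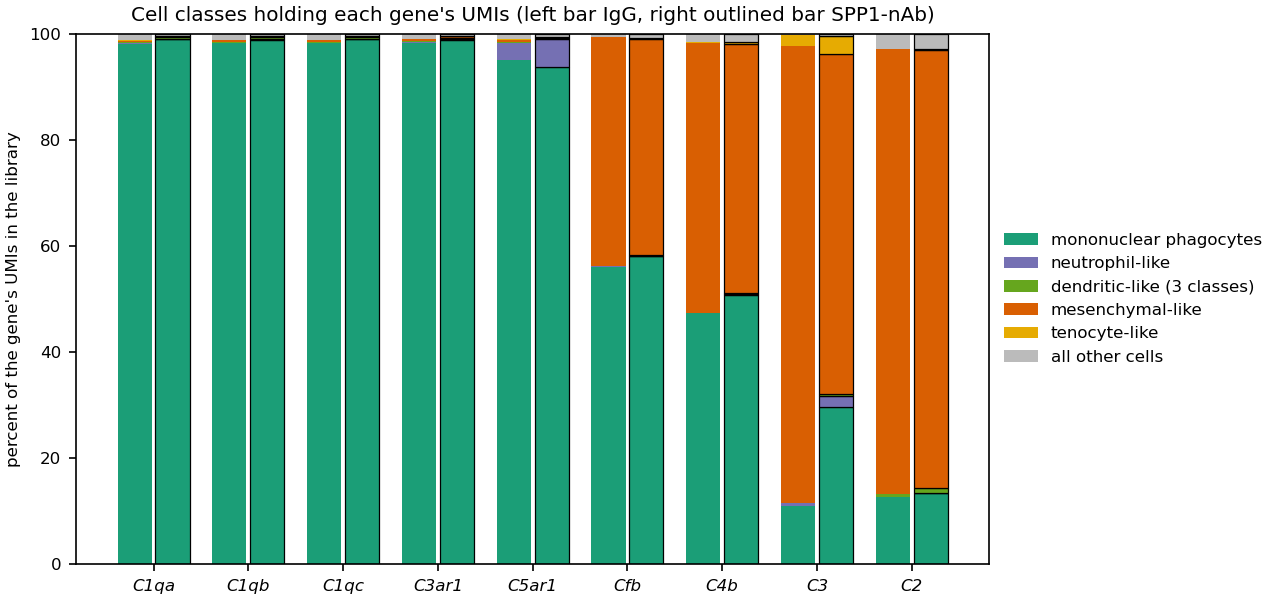
Percent of each gene's UMIs in a library (vertical axis) held by 5 named cell groups and all other cells, with the IgG library on the left and the SPP1-nAb library in the outlined bar on the right of each pair. C1qa, C1qb, C1qc, C3ar1 and C5ar1 were held by phagocytes, C3 and C2 mainly by mesenchymal-like cells, and C4b and Cfb by both.

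Within phagocytes C1q was graded by state. The highest level was in cluster 10, led by the interferon-induced genes Ifit3b, Ifit2 and Ifit1, at 9263 and 8921 CPM. Next came cluster 0, led by the resident macrophage genes Lyve1, Fcna, Cd163 and Folr2, at 8632 and 8789 CPM, and cluster 2, led by Il10, Cx3cr1, Gpr34 and Fcrls, at 7687 and 7674 CPM. Cluster 1, led by Gpnmb, Atp6v0d2 and Spp1 itself, was intermediate at 3898 and 3811 CPM. Monocyte-like cluster 3, led by Hp, Chil3 and Ear2, carried 1544 and 2016 CPM. The lowest level was in cluster 29, led by Cd300e, Treml4 and Adgre4, at 103 and 113 CPM, which is close to the levels in non-phagocytic classes. That cluster was only 54 and 57 cells. Both libraries shared the order of the 3 highest clusters and of the 4 lowest, which were 18, 12, 3 and 29.

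The 3 chains were found in the same cells. With every cell thinned to 2000 UMIs to remove differences in depth, 78.9% of IgG and 78.3% of SPP1-nAb phagocytes had at least 1 C1q UMI, of 11068 and 14397 cells deep enough to be thinned. All 3 chains were present in 61.1% and 55.0% of them. In mesenchymal-like cells the corresponding shares with at least 1 UMI were 8.65% and 11.6%, and all 3 chains were seen in 0.26% and 0.70%. Over the 31 clusters, with both libraries summed, log2 CPM of C1qa followed that of C1qc with r = 0.996, C1qb followed C1qc with r = 0.994 and C1qa followed C1qb with r = 0.991, points that share the same libraries and differ in depth. The make-up of C1q UMIs was less uniform than these correlations: in the IgG library C1qb took 35.3% of C1q UMIs in cluster 0 and 50.3% in cluster 12, the cluster led by Dcstamp and Mmp12. Capture can differ between transcripts, so these shares describe UMIs and not the chains of the protein.

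**Figure D2:**
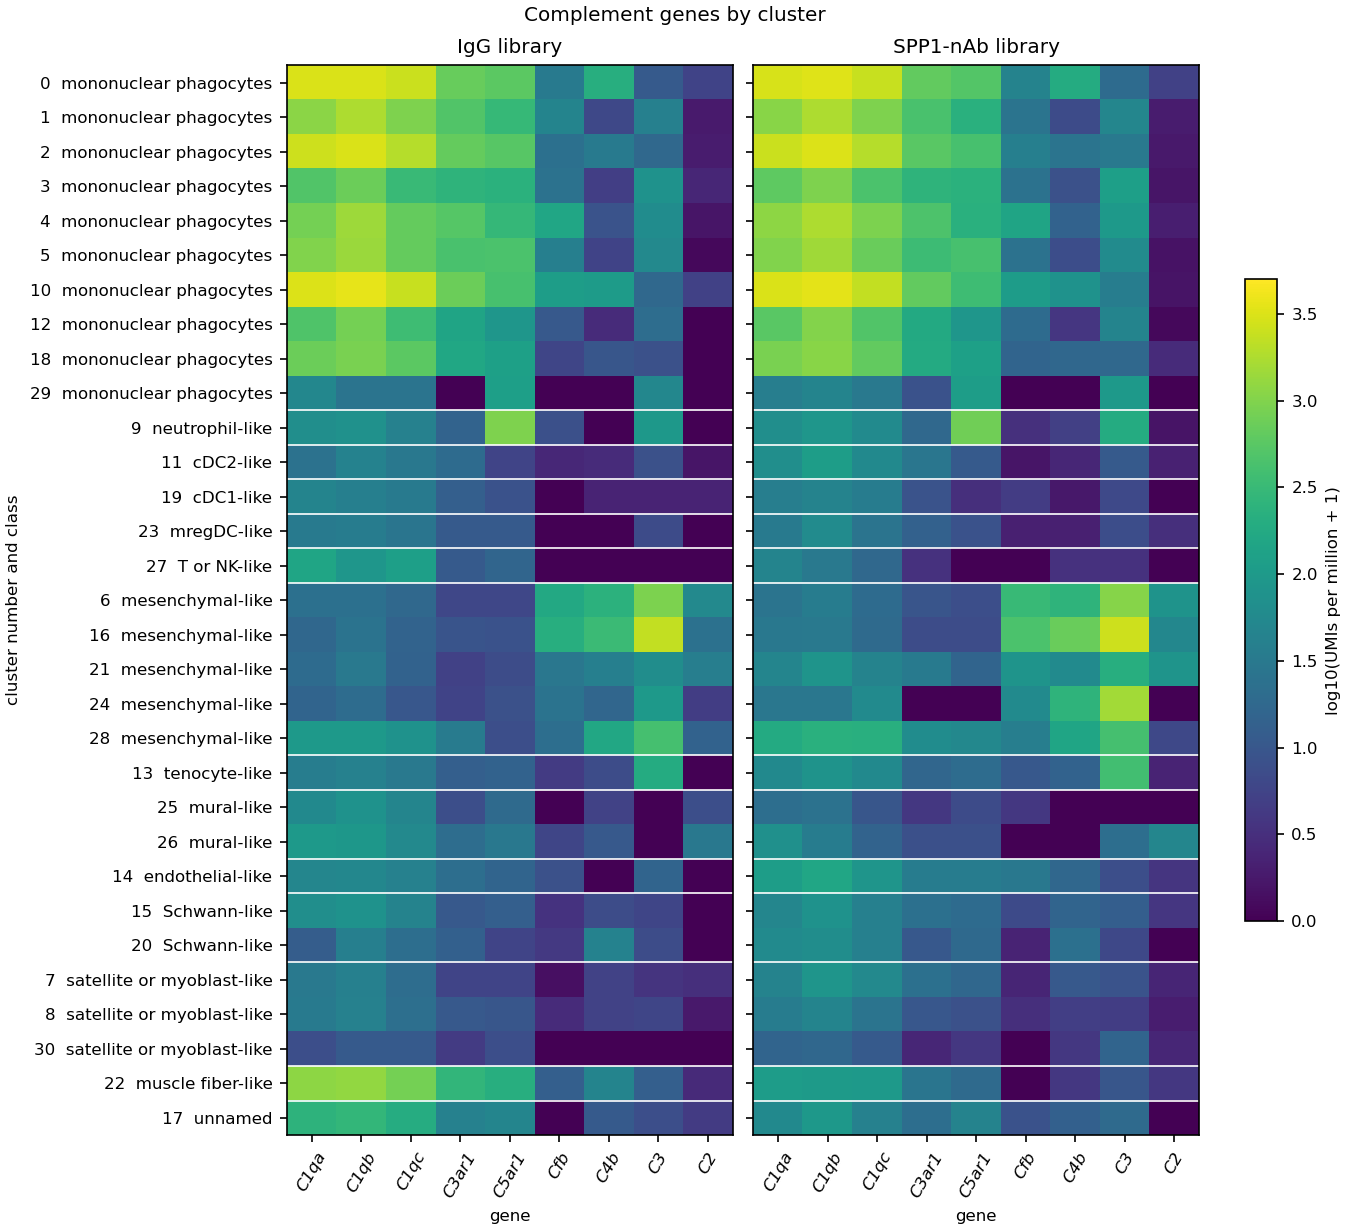
Level of each of the 9 genes (horizontal axis) in each of the 31 clusters (vertical axis, with cluster number and class), as log10 of CPM plus 1, for both libraries. C1q and C3ar1 were high in the phagocyte clusters other than cluster 29, C3 was highest in mesenchymal-like cluster 16, and C5ar1 was also high in neutrophil-like cluster 9.

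The receptor genes followed C1q into phagocytes, with 1 exception. C3ar1, at chr6:122823393-122833122 with 2 exons, encodes the receptor for C3a, and phagocytes held 98.3% and 98.9% of its UMIs at 518 and 427 CPM. C5ar1, at chr7:15980668-15993465 with 2 exons, encodes the receptor for C5a, the strong neutrophil attractant, and phagocytes held 95.1% and 93.6% of its UMIs at 388 and 303 CPM. The exception was the neutrophil-like class, which carried C5ar1 at a higher level than phagocytes per UMI of the class, 955 and 786 CPM, but held 3.23% and 5.30% of its UMIs. This class was 547 and 1215 cells with a median of 1236 and 1381 UMIs per cell. Per cell it had fewer C5ar1 UMIs than phagocytes, 673 and 1381 in all, against 19784 and 24397 in 12318 and 15565 phagocytes. Its C3ar1 level was 14.2 and 17.1 CPM, so this class carried C5ar1 with little C3ar1.

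Within phagocytes the receptors had different high points. C5ar1 was highest in cluster 0 at 592 and 509 CPM and lowest in cluster 12 at 87.3 CPM in both libraries. C3ar1 was highest in cluster 10 in the IgG library, at 742 CPM, and in cluster 0 in the SPP1-nAb library, at 651 CPM, with cluster 10 at 642. Cluster 29 had no C3ar1 UMI in the IgG library and 7.55 CPM in the SPP1-nAb library, yet it carried C5ar1 at 120 and 113 CPM. This cluster was only 54 and 57 cells, so its receptor levels rested on few UMIs. In phagocytes thinned to 2000 UMIs, both receptors were seen in 32.7% and 24.4% of cells, C3ar1 alone in 26.3% and 28.0%, C5ar1 alone in 16.4% and 17.1%, and neither in 24.5% and 30.5%. Over clusters C3ar1 was most like C1qb (r = 0.988), and C5ar1 was most like C5ar2 (r = 0.944), the other C5a receptor, Adgre1 (0.940) and Fcgr3 (0.937).

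C3 carries the step at which all routes meet. It lies at chr17:57510964-57535155 with 41 exons, and mesenchymal-like cells held 86.1% of its UMIs in the IgG library but 64.1% in the SPP1-nAb library. Phagocytes held 11.0% and 29.7%. On the CPM scale, however, mesenchymal-like C3 was higher with SPP1-nAb, at 1265 CPM (1240 to 1290) against 1057 CPM (1040 to 1075) with IgG. Mesenchymal-like cells themselves were 11.9% of IgG and 4.71% of SPP1-nAb cells. Tenocyte-like cells stood at 186 and 378 CPM, neutrophil-like cells at 92.2 and 185, and phagocytes at 35.1 and 58.9. Per cell, without matching for depth, neutrophil-like cells had fewer C3 UMIs than phagocytes. They had 65 and 325 in 547 and 1215 cells, against 1792 and 4748 in 12318 and 15565 phagocytes.

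C3 was uneven among the mesenchymal-like clusters. Cluster 16, led by Krtdap, Pi16 and Sbsn, carried 2279 and 2614 CPM and held 42.8% and 32.3% of the C3 UMIs of the class with 19.5% and 14.0% of its cells. Cluster 6, led by Gdf10, Penk and Cxcl14, carried 924 and 1074 CPM, cluster 28 408 and 404, and cluster 21, led by A2m, Gpc3 and Apod, 64.4 and 211. Among phagocytes C3 was highest in monocyte-like clusters 3 and 4, with 75.6 and 61.4 CPM in the IgG library and 123 and 101 in the SPP1-nAb library. C1q-rich cluster 0 had 9.99 and 18.5 CPM. The C3 level in cluster 3 was 28.4 and 45.1 times what mesenchymal RNA would give at the summed level of mesenchymal markers there, and in neutrophil-like cells it was 14.1 and 25.3 times that level. The genes most like C3 over the clusters were Ptges (r = 0.805), Pi16 (r = 0.803) and Dram1 (r = 0.796).

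C2 had the fewest UMIs, 1379 over both libraries. It encodes the serine protease that joins C4b in the classical C3 convertase, and lies at chr17:35081578-35117241 with 18 exons. Mesenchymal-like cells held 84.0% and 82.6% of its UMIs at 42.4 and 72.7 CPM, from 560 and 588 UMIs, whereas phagocytes stood at 1.65 and 1.18 CPM. Cluster 6 held 81.8% and 84.0% of the mesenchymal-like UMIs of C2 at 54.6 and 78.9 CPM, with cluster 21 at 37.4 and 82.0 and cluster 16 at 22.9 and 51.3. Cluster 21 rested on 36 and 28 UMIs, and its interval in the SPP1-nAb library (54.5 to 119) overlapped that of cluster 6. In measured level clusters 6 and 21 were thus above cluster 16, the cluster with the most C3, in both libraries, cluster 21 on those few UMIs. The genes most like C2 were Gdf10 (r = 0.872), a leading gene of cluster 6, Osr1 and Dact1 (both 0.863).

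C4b and Cfb UMIs were shared between stroma and phagocytes, while their CPM was higher in mesenchymal-like cells in both libraries. Phagocytes were 58.5% of IgG and 69.9% of SPP1-nAb cells, against 11.9% and 4.71% for mesenchymal-like cells. C4b encodes the C4 protein that C1 proteases cut, and lies at chr17:34947354-34962912 with 41 exons. Mesenchymal-like cells held 50.8% and 47.1% of its UMIs at 223 and 319 CPM, and phagocytes 47.3% and 50.8% at 53.6 and 34.5 CPM. C4a, a near-identical neighbour, received 37 UMIs, and reads that match both genes can be dropped or divided in counting. Within phagocytes C4b belonged mainly to 1 state: cluster 0, the Lyve1 and Folr2 cluster, carried 209 and 185 CPM and held 71.8% and 65.9% of phagocyte C4b with 20.9% and 14.9% of phagocytes. Cluster 10 followed at 108 and 76.6 CPM and cluster 2 at 31.9 and 25.5, while clusters 1, 3, 5 and 12 were between 1.83 and 7.33 CPM. C4b in cluster 0 exceeded the level given by its mesenchymal markers 382-fold and 246-fold. Among mesenchymal-like clusters it was highest in cluster 16 in both libraries, at 335 and 723 CPM, apart from the 5 SPP1-nAb cells of cluster 24.

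Cfb encodes the protease subunit of the alternative C3 convertase, and its start lies 18 bases from the end of C2, at chr17:35074852-35081559 with 18 exons. Gm20547, a gene model on the same strand that overlaps both Cfb and C2, was not among the counted genes. Phagocytes held 56.0% and 58.1% of its UMIs at 52.0 and 44.9 CPM, and mesenchymal-like cells 43.1% and 40.8% at 155 and 313.5 CPM. Its phagocyte UMIs came from another state than those of C4b. Cluster 4, a monocyte-like cluster led by Rsad2, Ly6c2, Ifit2 and Isg15, carried 156 and 143 CPM and held 38.6% and 35.0% of phagocyte Cfb with 12.2% and 11.0% of phagocytes. Interferon-gene cluster 10 carried 115 and 111 CPM, and cluster 0 only 31.6 and 44.6. In cluster 4 Cfb exceeded the level given by mesenchymal markers 567-fold and 244-fold.

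The 250 bases before the Cfb start, chr17:35081560-35081809, overlap the end of C2 and are not printed. They held the ETS core 245 bases before the start and matches to the kappaB consensus, the site of NF-κB, at 159 and 66 bases. The kappaB consensus was present in 7.63% of promoters of this length and, of the 9 genes, in Cfb and C4b. The interferon response motif, GAAA and GAAA with any 2 bases between, present in 3.32% of promoters, was in none of the 9 windows, which says only that these letters do not occur there. C2, C3 and C3ar1 had none of the 4 motifs searched.

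**Figure D3:**
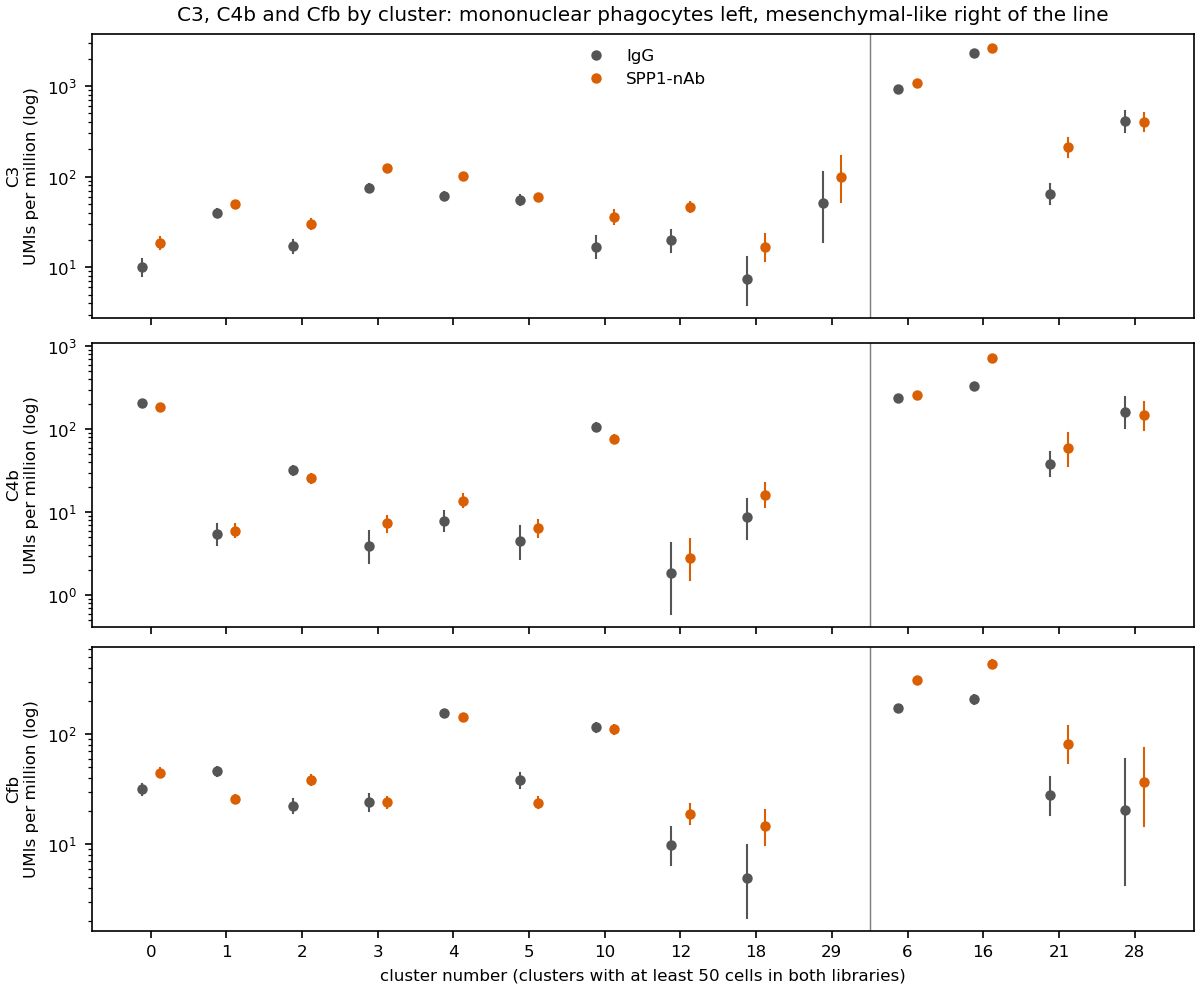
Level of C3, C4b and Cfb (CPM, log axis, with 95% counting intervals) in each phagocyte cluster (left of the line) and mesenchymal-like cluster (right) with at least 50 cells in both libraries, IgG in grey and SPP1-nAb in orange. C4b was highest among phagocytes in cluster 0, Cfb in cluster 4 and C3 in cluster 3, and all 3 genes were highest of all mesenchymal-like clusters shown in cluster 16.

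Schwann-like cells, the glial source, stood low for every gene. Their C1q level was 135 and 163 CPM, against 111 and 191 CPM of summed phagocyte markers, and was 1.17 and 0.85 times what RNA from phagocytes would give at that marker level. C3 stood at 5.55 and 8.97 CPM, Cfb at 2.78 and 3.92, and C2 at 0 and 1.68. At 2000 UMIs per cell, C3 was seen in 0.56% and 1.61% of 357 and 436 Schwann-like cells, near the 0.60% and 0.82% of satellite cell or myoblast-like cells. C4b stood higher, with 32 UMIs in each library, or 22.2 CPM (15.2 to 31.3) and 17.9 CPM (12.3 to 25.3), against 4.12 (2.69 to 6.03) and 5.16 (3.53 to 7.29) in satellite cell or myoblast-like cells. The shares of thinned cells with a C4b UMI, 2.52% and 2.29% against 0.74% and 0.73%, had intervals that overlapped. Of those UMIs 27 and 17 were in Schwann-like cluster 20, at 43.0 and 22.6 CPM, which was 6.84 and 3.69 times the level given by its mesenchymal markers. Schwann-like cells held 0.55% and 0.58% of all C4b UMIs.

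Other classes outside phagocytes carried lower C1q, and not always in step with their phagocyte markers. Mesenchymal-like cells had 61.1 and 95.5 CPM of C1q, 0.25 and 0.36 times the amount given by their phagocyte markers. In clusters 6 and 24 of this class, 1 of the 7 phagocyte markers was raised over the median of the other clusters. The marker sum of mesenchymal-like cells therefore need not measure phagocyte RNA alone, and this was not tested. The muscle fiber-like cluster had 3284 CPM in the IgG library and 309 in the SPP1-nAb library, and its phagocyte markers stood at 57.4% and 7.73% of their level in phagocytes. C1q there was 1.13 and 0.87 times the amount given by those markers. In cDC2-like cells, by contrast, C1q was 96.5 and 237 CPM with summed phagocyte markers at 765 and 933, and in T or NK-like cells 356 and 92.5 CPM with markers at 152 and 114. The part of free RNA and of mixed droplets in these values was not tested further.

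Between the libraries, every phagocyte ratio of the 9 genes but that of C3 was below 0, and only C3 and C4b passed 1.5-fold. A gene was counted as different where its CPM differed at least 1.5-fold with at least 100 UMIs. In phagocytes 2.44% of 12412 genes were higher and 8.81% lower by that rule, and of the 9 complement genes C3 was higher and C4b lower. The median log2 ratio of SPP1-nAb over IgG was -0.21 for the 9 genes and -0.05 for all genes counted, and this difference was not tested. C3 was higher by 0.75 (0.67 to 0.83), C4b lower at -0.64 (-0.71 to -0.56) and Cfb at -0.21 (-0.29 to -0.14). C3ar1 stood at -0.28 (-0.30 to -0.26), C5ar1 at -0.36 (-0.38 to -0.33) and C2, on 84 and 95 UMIs, at -0.48 (-0.92 to -0.04).

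Part of these ratios moved with the mix of phagocyte clusters. C4b-rich cluster 0 made up 20.9% of IgG and 14.9% of SPP1-nAb phagocytes. With both libraries given the same mix of clusters, the C4b ratio was -0.14, C3 0.59, Cfb -0.08, C3ar1 -0.17, C5ar1 -0.26 and summed C1q 0.06. C3 was higher in the SPP1-nAb library in 8 of 8 phagocyte clusters with enough UMIs, from 0.11 (-0.10 to 0.32) in cluster 5 to 1.23 in cluster 12. Of these 8 intervals 7 lay above 0. C5ar1 had 6 of 9 cluster intervals below 0 and none above. C4b was above 0 in 3 clusters and below in 3, and Cfb ran from -0.85 in cluster 1, the Gpnmb and Spp1 cluster, to 0.94 in cluster 12, with cluster 0 at 0.50 and cluster 2 at 0.79.

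**Figure D4:**
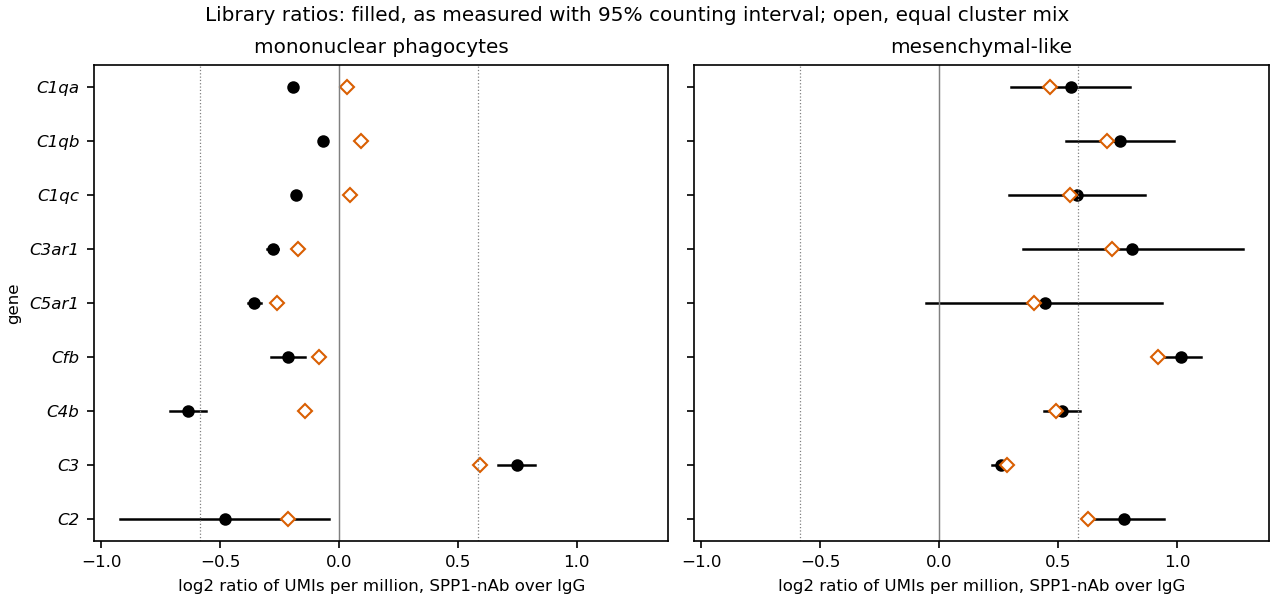
Log2 ratio of CPM, SPP1-nAb over IgG, for each gene in phagocytes (left) and mesenchymal-like cells (right). Filled points with bars are the measured ratio and its 95% counting interval, open diamonds the ratio at an equal cluster mix and dotted lines 1.5-fold. The diamonds of mesenchymal-like cells rest in part on cluster 24, which held 5 SPP1-nAb cells. In mesenchymal-like cells every point lay above 0 while in phagocytes C3 alone did among the filled points.

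In mesenchymal-like cells every measured ratio was above 0, although the interval of C5ar1, at 0.44 (-0.05 to 0.94), included 0. By the 1.5-fold rule, 5.73% of 10471 genes were higher and 6.41% lower, and of the 9 complement genes 4 were higher (Cfb, C2, C3ar1 and C1qb) and 0 lower. The median log2 ratio was 0.58 for the 9 genes and -0.02 for all genes counted. The median of the 9 was the ratio of C1qc, which stood at only 16.2 and 24.2 CPM in this class. Cfb had the highest ratio, 1.02 (0.93 to 1.10), followed by C3ar1 at 0.81 (0.35 to 1.28), C2 at 0.78 (0.61 to 0.95) and C1qb at 0.76 (0.53 to 0.99). C4b stood at 0.52 (0.44 to 0.59) and C3 at 0.26 (0.22 to 0.30). The receptors in this class rested on few UMIs, 78 and 84 for C3ar1 and 78 and 65 for C5ar1, and the C1q chains together on 807 and 773. The summed phagocyte markers in this class were also higher in the SPP1-nAb library, as given above. That sum includes 1 marker raised in clusters 6 and 24 of the class, so it need not measure phagocyte RNA alone.

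The 4 genes that mesenchymal-like cells carried in quantity were higher in both of the largest clusters. Cfb was higher by 0.85 in cluster 6 and 1.09 in cluster 16, C2 by 0.53 and 1.17, C4b by 0.11 and 1.11, and C3 by 0.22 and 0.20. Cluster 24, led by Dlk1 and Adamtsl2, held 225 IgG cells but 5 SPP1-nAb cells and was poor in C3, at 100 CPM in the IgG library. Without it the class ratios were 0.14 for C3, 0.40 for C4b, 0.67 for C2 and 0.92 for Cfb. In the smaller classes, C3 was also higher in tenocyte-like cells, by 1.02 (0.82 to 1.22), where 6.33% of 4578 genes were at least 1.5-fold higher and 3.74% lower. In neutrophil-like cells it was higher by 1.00 (0.61 to 1.41), where 5% of 3101 genes were higher and 4.22% lower, but 0.57 (-0.77 to 2.26), under 1.5-fold, in the few cells deep enough to be thinned. With 1 library per group, these ratios and the differences between 2 pools of mice, their dissociation and their capture cannot be told apart.

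Over all cells, the direction for several genes depended on the weight given to each cluster. As measured, the ratio of SPP1-nAb over IgG was -0.42 for C3, -0.48 for C4b, -0.30 for C2 and 0.00 for Cfb. At an equal mix of clusters the same ratios were 0.38, 0.21, 0.52 and 0.36. That mix gave cluster 24 the same weight in both libraries, although it held 225 IgG cells and 5 SPP1-nAb cells. C3, C4b and C2 were thus lower over all cells as measured and higher once both libraries had the same clusters in the same proportions. Summed C1q went from 0.11 to 0.06, C3ar1 from -0.02 to -0.17 and C5ar1 from -0.07 to -0.26.

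Other genes of the pathway were compared between the same pair of classes. Of 53 genes listed by role, 37 had at least 100 UMIs in both classes together, and 15 were at least 4-fold higher in phagocytes in both libraries, 15 at least 4-fold higher in mesenchymal-like cells and 7 neither. Among 13962 genes the corresponding shares were 9.51% and 16.4%. Of the 9 complement genes described above, 5 were higher in phagocytes (the C1q chains and both receptors), 3 in mesenchymal-like cells (C2, C3 and C4b, the last just past the limit in the IgG library at a log2 ratio of -2.05) and Cfb in neither.

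C1q and its proteases had different sources. C1ra and C1s1, which encode the proteases C1r and C1s that ride on C1q, stood at 281 and 302 CPM and at 378 and 406 CPM in mesenchymal-like cells, against 3.78 and 1.04 CPM in IgG phagocytes. Serping1, the inhibitor of those proteases, stood at 3064 and 3661 CPM in mesenchymal-like cells. Cfp, which encodes properdin, the stabilizer of the alternative convertase, stood at 272 and 293 CPM in phagocytes and at 341 and 416 in cDC2-like cells. Itgam, a chain of complement receptor 3, stood at 318 and 315 CPM in phagocytes and at 386 and 473 in neutrophil-like cells. Of the receptors 8 of 9 counted genes were higher in phagocytes than in mesenchymal-like cells by this rule, and of the fluid phase regulators 3 of 4 were higher in mesenchymal-like cells. The rule compares these classes alone: of the 8 receptors, C3ar1 and Vsig4 had their highest level in phagocytes, while C5ar1, C5ar2, Itgam and Itgb2 were highest in neutrophil-like, Itgax in mregDC-like and Cd93 in endothelial-like cells. Csmd1, which encodes a membrane regulator, was highest in Schwann-like cells at 4332 and 4594 CPM.

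**Figure D5:**
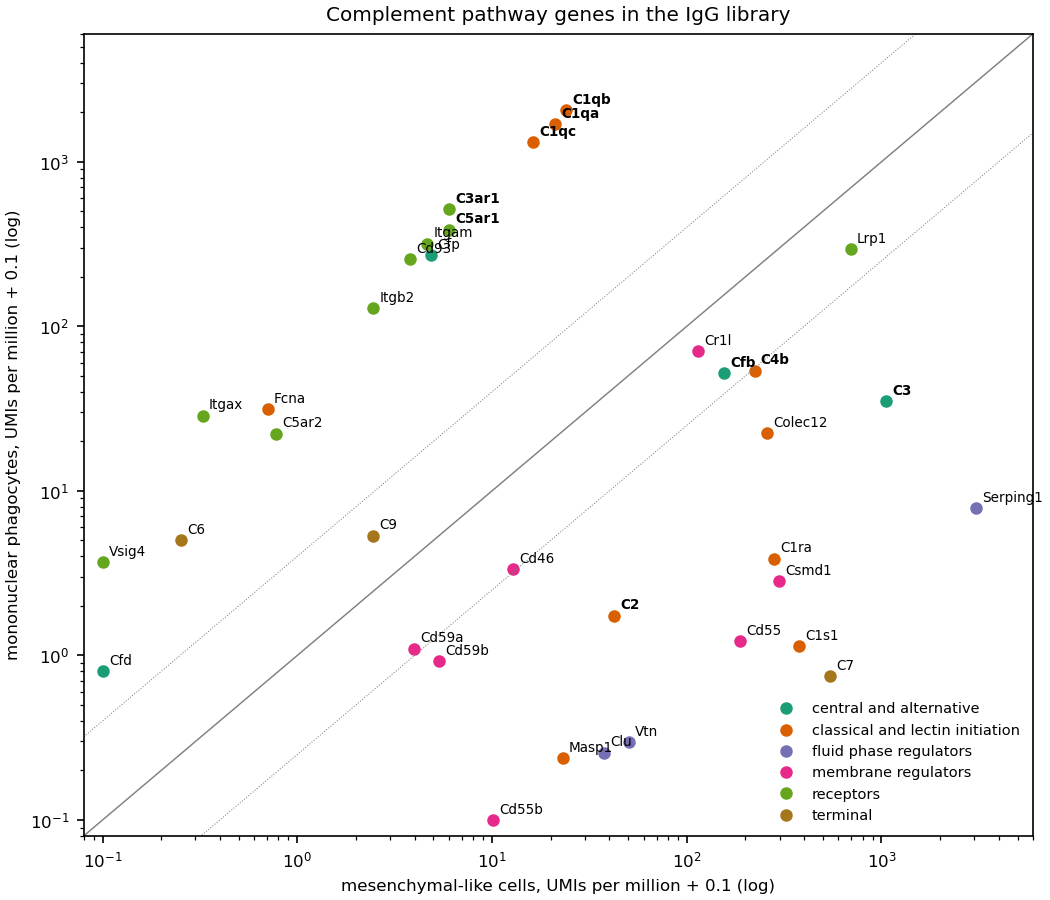
Level of counted pathway genes in mesenchymal-like cells (horizontal) and phagocytes (vertical) of the IgG library, as CPM plus 0.1 on log axes, coloured by role, with the 9 described genes in bold. Dotted lines mark 4-fold: C1q and the receptors other than Lrp1 lie above them, C1ra, C1s1, C7 and Serping1 below.

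Between the libraries, 32 pathway genes were counted in phagocytes, of which 2 were higher and 9 lower, and 27 in mesenchymal-like cells, of which 6 were higher and 2 lower. The 6 were Cfb, C2, C1qb, C3ar1, Cfp and Itgam. All of these but Cfb and C2 were at least 4-fold higher in phagocytes. In SPP1-nAb mesenchymal-like cells C1qb, C3ar1, Cfp and Itgam stood at only 40.4, 10.4, 9.39 and 11.4 CPM, and carry-over from phagocytes was not tested for them. Over all genes the shares were 2.44% higher and 8.81% lower in phagocytes and 5.73% and 6.41% in mesenchymal-like cells. At an equal cluster mix the counts were 3 higher and 3 lower in phagocytes and 6 and 1 in mesenchymal-like cells. The shares over all genes were not computed at that mix, so these counts have no background to be set against. In mesenchymal-like cells the mix also rested in part on the 5 SPP1-nAb cells of cluster 24. Vsig4, a macrophage receptor for C3 fragments, was lower in phagocytes at -2.07, on a level of only 3.60 CPM in the IgG library. C7, which encodes a component of the membrane attack complex, went from 542 to 153 CPM in mesenchymal-like cells, at -1.83 and at -1.94 without cluster 24.

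Apart from the C1q chains and C3ar1, the likeness over clusters was looser. C4b and Cfb correlated at r = 0.78 over the 31 clusters, C3 and Cfb at 0.69, C2 and C4b at 0.63, and C3 and C1qa at -0.02. The genes most like C4b were Tgfbr2 (r = 0.818), Itsn1 and Col14a1 (both 0.791), and those most like Cfb were Calml4 (0.811), Lars2 (0.793) and Ecm1 (0.789). C2, Cfb and C4b lie on the same stretch of chromosome 17, with 111939 bases between C4b and Cfb, and among phagocytes cluster 0 had the highest level of C4b and C2 in both libraries, C2 on 42 and 41 UMIs, while Cfb was highest in cluster 4.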

How the data were processed

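The deposited files were 1 matrix of whole-number UMI counts per gene and barcode for each library, which the authors made with Cell Ranger from 10x reads after its own selection of barcodes, without normalization. The labels name version 8.0.0 and the file headers 9.0.1, and the methods name both GRCm39 with EGFP and GRCm38. The study's later removal of ambient RNA (Decontx) is not in these counts. Cells were PI-negative cells sorted after collagenase and dispase digestion.

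The study's limits were applied to barcodes, over 200 detected genes and a mitochondrial share under 10%, and the 10% with the highest score against simulated doublets were removed. Counts per 10000 UMIs on a log scale, 2000 variable genes without the 53 pathway genes and Spp1, 30 principal components, Harmony-type integration and Leiden clustering at resolution 1 (igraph 0.11.9, leidenalg 0.10.2, numpy 2.4.6, scipy 1.17.1, pandas 2.3.3) gave 31 clusters. A class name needed 3 markers at 1.5 times the median of the other clusters in at least 20% of cells, limits set after the clusters were seen. Where several classes met this, the one with the largest share of its markers raised was taken. A cluster of low depth with no marker of its class among its leading genes was left unnamed. The cycling cluster 18 had 7 of 7 phagocyte markers raised, and 3 of 5 for each of cDC1 and cDC2. Its mean log2 fold was higher for the dendritic lists, 4.46 for cDC1 and 4.42 for cDC2, against 2.76 for phagocytes. It was counted as phagocyte, but its class is uncertain. Cluster 17, of low depth, had 4 satellite cell or myoblast markers raised and stayed unnamed by the depth rule. The genes and lists were chosen with earlier results of these data known.

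Raw counts were summed per class and library and divided by the class total. Levels have exact Poisson, shares exact Clopper-Pearson and ratios exact conditional binomial 95% intervals. These cover counting error only, and with 1 library per group no test was made. Named genes were the 9 members, the pathway genes by role and the 3 genes with the highest Pearson correlation of log2(CPM + 1) over clusters among genes with at least 1000 UMIs. Gene positions and promoters come from GENCODE M39 on GRCm39, where 31674 of 32287 gene IDs matched. Promoters are those of protein-coding genes. The scripts were tested on simulated counts. 1 pathway gene enters the counts but is not reported here by name or in the figure.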

Additional observations from a re-analysis of the deposited data

Results flagged for a closer look

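For C2, C4b and Cfb the library ratio had opposite signs in mesenchymal-like cells and phagocytes. As measured, the C1q chains and both receptors also had opposite signs, and C3 alone was above 0 in both classes. The interval of C5ar1 in mesenchymal-like cells included 0. The log2 ratio of SPP1-nAb over IgG was 0.78 in mesenchymal-like cells and -0.48 in phagocytes for C2, 0.52 and -0.64 for C4b, and 1.02 and -0.21 for Cfb. The difference between the classes was not tested, since each group was 1 library. At an equal cluster mix the phagocyte ratios were nearer 0, at -0.21 for C2, -0.14 for C4b and -0.08 for Cfb, and have no intervals. The mesenchymal-like ratios were 0.62, 0.49 and 0.92. They rested in part on cluster 24, which had 225 IgG cells but 5 SPP1-nAb cells. Without that cluster the measured ratios were 0.67, 0.40 and 0.92. At an equal cluster mix C1qa, C1qb and C1qc were above 0 in both classes. They stood at 0.03, 0.09 and 0.04 in phagocytes and at 0.47, 0.71 and 0.55 in mesenchymal-like cells. Levels in mesenchymal-like cells were low, at 21.1 and 30.9 CPM for C1qa, 23.9 and 40.4 for C1qb and 16.2 and 24.2 for C1qc. The receptors there rested on 78 and 84 UMIs for C3ar1 and 78 and 65 for C5ar1. The part of RNA carried over from phagocytes in these values was not tested. Among phagocyte clusters with enough UMIs, C4b was above 0 in 3 and below in 3, and Cfb above in 3 and below in 5. C2 in phagocytes rested on 84 and 95 UMIs.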

How the results depend on the processing

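No paired analysis was possible because each group was 1 library. Of 242 repeats of 22 values under other settings, 187 moved by less than their counting interval, 50 moved by more and 5 changed sign. The equal cluster mix and the runs without cluster 24 or without shared barcodes were chosen after seeing the data. The percent of C1q UMIs in phagocytes (IgG and SPP1-nAb) was 93.6 and 95.2 with no doublets removed and 99.1 and 99.2 with the 20% highest doublet scores removed. It was 97.8 and 98.4 with over 500 genes per cell, 98.9 and 99.1 without integration and 98.8 and 98.9 at resolution 2. With cells gated on markers it was 96.5 and 97.4, after thinning 98.5 and 99.1, and after subtraction of carried-over RNA 99.9 and 100. It was 98.1 at resolution 0.5 in the IgG library. The subtraction took C1q out of the other classes in step with their phagocyte markers, so the higher share after it was built in. The percent of C3 UMIs in mesenchymal-like cells was 85.2 and 62.2 with the marker gate, 82.7 and 53.8 after thinning and 86.9 and 65.1 after subtraction. In the IgG library it was 85.4 with no doublets removed and 86.8 with the 20% highest doublet scores removed. For C4b it was 40.0 and 34.2 after thinning, which gives every cell the same weight. The C1q ratio in phagocytes was -0.15 without integration, -0.17 with the marker gate, -0.17 after thinning and 0.0607 at an equal cluster mix, where C1qa (0.0319), C1qb (0.0929) and C1qc (0.0449) also changed sign. C3ar1 stood at -0.30 with the marker gate and -0.17 at an equal mix, and C5ar1 at -0.26 at an equal mix. In mesenchymal-like cells C3 stood at 0.30 and C4b at 0.60 with 20% of doublets removed, and at 0.14 and 0.40 without cluster 24. C5ar1 in neutrophil-like cells was 0.0825 after thinning, and C3 there 0.57, where 15 and 85 cells were deep enough. Apart from the equal mix and the construction of thinning and of the subtraction, the cause was not tested. Low UMI counts limit C2 in phagocytes and most of the genes in Schwann-like cells.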
